A study of Mus musculus with 4 samples.

Results

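The 10 genes studied here are commonly read as markers of fibroblasts and pericytes, and were followed in sorted thymic epithelium: Pdgfra, Pdgfrb, Rgs5, Cspg4, Acta2, Tagln, Myh11, Dcn, Lum and Dpt. They were taken by symbol from a list drawn up with earlier results of these data known. All 10 were found once among the 54532 genes of the table. The 4 libraries, 1 per group, are bulk RNA of medullary cells (mTEC, Ly51− and UEA1+) and cortical cells (cTEC, Ly51+ and UEA1−) from SCD1 knockout C57BL/6 mice and from littermates labelled WT, here called control. The sources used here do not say whether the knockout covers the whole animal, how old the mice were or how many of them a library represents.

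Fibroblasts of the thymus build its capsule and septa and supply growth factors to the epithelium, while pericytes wrap the vessels through which mature T cells leave. PDGF receptors mark both lineages: PDGFRA is the usual fibroblast receptor and PDGFRB is carried by pericytes, and each is activated by PDGF ligands that neighbouring epithelium and endothelium secrete. Contractile genes such as Acta2, Tagln and Myh11 are driven by serum response factor (SRF) with its myocardin family partners, which bind a sequence called the CArG box. Decorin, lumican and dermatopontin are matrix proteins that bind collagen fibrils.

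Between 15740383 and 18151725 reads were assigned to genes per library. Scd1 fell by 2.28 on the log2 scale in knockout mTEC (1310 and 278 reads) and by 2.34 in knockout cTEC (325 and 73 reads). Epithelial markers were high throughout, with 7 of 7 detected and a summed level of 10066 to 11123 CPM (counts per library size after TMM scaling, the usual depth unit), and with Epcam at 6313 to 12107 reads. Of other cell types, the summed levels in CPM were 25.7 to 61.9 for 10 endothelial markers, 199.5 to 359.0 for 10 thymocyte markers, 96.7 to 366.3 for 8 myeloid markers, 8.37 to 124.4 for 10 skeletal muscle markers and 42.8 to 133.8 for 4 mesothelial markers. Myod1 in both cTEC libraries and Actc1 in control cTEC were the only genes of these lists at 0 reads. With 1 library per group there is no replicate check and no p-value. The 95% intervals given throughout are exact binomial for ratios and exact Poisson for levels. They cover counting error alone, so that each comparison describes a pair of libraries and not the conditions behind them.

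The promoters of 3 of the genes are shown because these genes stand for the directions found between the populations: Acta2 and Rgs5 were higher in mTEC and Dpt was higher in cTEC. The sequences are from RefSeq on GRCm38.p6 and run 5′ to 3′ on the strand of the gene. They cover 250 bases before to 50 bases after the start annotated in RefSeq. Promoters of 5 of the 10 genes were searched, and those of the other genes were not. Acta2 is at chr19:34255324-34255623 on the minus strand, Rgs5 at chr1:169655251-169655550 and Dpt at chr1:164796413-164796712, both on the plus strand. Capitals mark CArG boxes with 1 G or C in the centre, TATATA and TATAAA, searched on both strands. The 3 promoters shown are also those in which a match was found. The promoters of Pdgfra and Cspg4, both read higher in mTEC, were searched too and held no such match.
Acta2: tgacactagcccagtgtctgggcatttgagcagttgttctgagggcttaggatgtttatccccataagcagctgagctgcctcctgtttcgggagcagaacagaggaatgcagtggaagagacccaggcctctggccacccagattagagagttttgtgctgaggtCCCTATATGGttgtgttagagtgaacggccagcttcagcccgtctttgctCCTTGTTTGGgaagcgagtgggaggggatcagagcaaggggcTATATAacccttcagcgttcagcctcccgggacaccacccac
Rgs5: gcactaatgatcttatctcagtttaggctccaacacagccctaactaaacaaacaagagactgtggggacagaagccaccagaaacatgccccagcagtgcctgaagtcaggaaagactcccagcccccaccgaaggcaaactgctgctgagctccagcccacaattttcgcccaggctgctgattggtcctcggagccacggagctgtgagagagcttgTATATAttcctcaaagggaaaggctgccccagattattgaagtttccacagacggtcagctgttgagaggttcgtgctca
Dpt: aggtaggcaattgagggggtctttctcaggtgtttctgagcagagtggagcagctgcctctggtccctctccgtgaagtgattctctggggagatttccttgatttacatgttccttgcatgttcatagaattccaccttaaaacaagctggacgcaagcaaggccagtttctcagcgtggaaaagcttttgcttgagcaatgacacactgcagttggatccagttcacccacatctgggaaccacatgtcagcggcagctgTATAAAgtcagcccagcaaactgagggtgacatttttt

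Acta2 held a pair of such CArG boxes, CCCTATATGG from 84 to 75 and CCTTGTTTGG from 34 to 25 bases before the RefSeq start. Of the 32851 promoter windows of this length, 8.50% held at least 1 such box, 0.679% held 2 or more, and 1.63% held a CArG box with only A and T in the centre. TATATA lay 30 to 25 bases before the start in Rgs5 and at bases 9 to 14 after it in Acta2, and 5.67% of windows held it. Dpt held TATAAA at bases 13 to 18 after the start, as 13.6% of windows did somewhere. These distances hold for the RefSeq starts only. The gene positions deposited with the counts start Acta2 at 34255336, downstream of its RefSeq start and of its TATATA. By that position the TATATA of Acta2 lies before the start, as in Rgs5, and both CArG boxes lie further from it. For Dpt they give a start at 164796644, upstream of the RefSeq start. TATATA and TATAAA can overlap each other. A match is a match of letters only, and binding was not measured.

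The 10 genes did not stand at one level. Per kilobase of gene length, the scale on which genes can be compared, Acta2 was the highest and Pdgfra the lowest in each of the 4 libraries, and the gap between them was 816-fold and 666-fold in control and knockout mTEC and 603-fold and 709-fold in the cTEC libraries. The 4 genes Acta2, Rgs5, Myh11 and Dcn held nearly all of the reads, with 12269 to 14613 each over the 4 libraries, while the other 6 had between 116 and 912. The median over the 10 genes was 3.29 to 3.99 CPM per kilobase, against 4.28 to 5.59 for protein-coding genes with at least 10 reads. Their summed level was 956.2 and 973.6 CPM in control and knockout mTEC and 666.8 and 652.2 in the corresponding cTEC libraries. In a bulk sample, fewer cells of a type and less RNA per cell cannot be told apart.

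**Figure D1:**
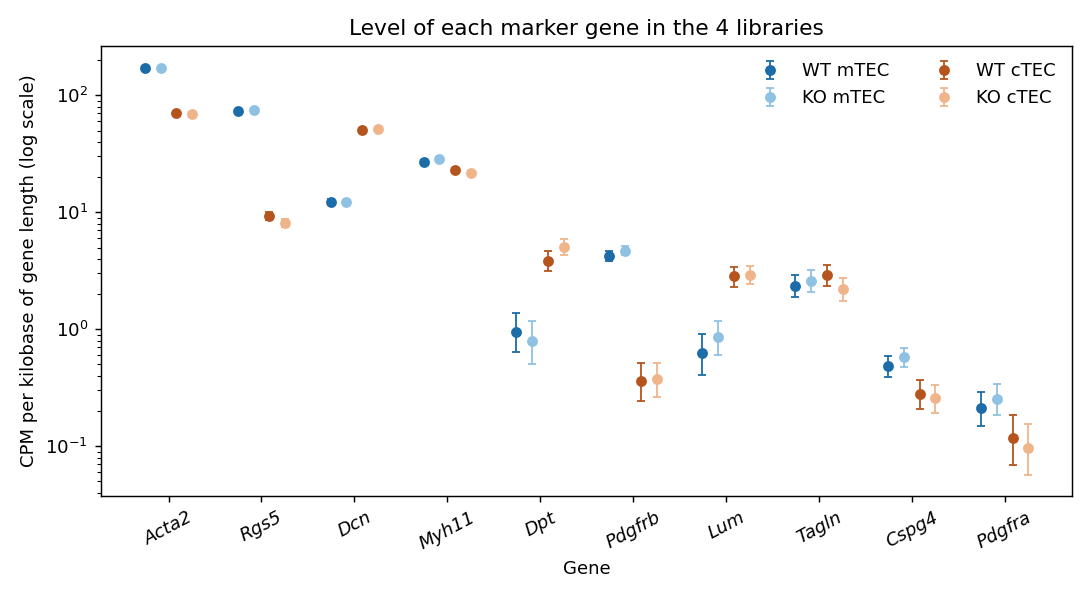
Level of each gene in CPM per kilobase of gene length (log axis), one point per library, with exact 95% Poisson intervals (WT, littermate control; KO, SCD1 knockout). Acta2 is highest at 68.6 to 172.0 and Pdgfra lowest at 0.0967 to 0.256, and for most genes the populations are further apart than the genotypes.

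Among the receptors, Pdgfrb, which transmits PDGF signals in pericytes, was found mainly in mTEC. The gene (ENSMUSG00000024620, chromosome 18) had 393 and 453 reads in control and knockout mTEC and 30 and 36 in the cTEC libraries. Both mTEC libraries thus lay far above both cTEC libraries, by a log2 ratio of 3.53 (3.02 to 4.14) in control and 3.63 (3.16 to 4.18) in knockout mice, or 11.6-fold and 12.4-fold. These were the largest population ratios among the 10 genes. Pdgfra (ENSMUSG00000029231, mm10 chromosome 5, 75152292 to 75198215, plus strand), the receptor used to sort fibroblasts, was read at a low level, with 36 and 45 reads in mTEC and 18 and 17 in cTEC (control first, as throughout). Its per-kilobase level ranked 16202 of 16668 protein-coding genes with at least 10 reads in control mTEC and 14384 of 14484 in knockout cTEC. The population ratio of Pdgfra was 0.82 (−0.01 to 1.75) in control and 1.38 (0.57 to 2.30) in knockout libraries, and the difference between these, 0.55 (−0.58 to 1.69), did not exclude 0. Per kilobase, Pdgfrb exceeded Pdgfra 20.0-fold (14.2 to 28.9) in control mTEC and 18.4-fold (13.5 to 25.6) in knockout mTEC, but 3.05-fold (1.65 to 5.81) and 3.88-fold (2.12 to 7.36) in cTEC.

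The ligands of these receptors were present in all libraries. Pdgfa, which activates PDGFRA, was the highest of the 4 at 30.8 to 53.8 CPM per kilobase, with 1689 and 1686 reads in mTEC and 2563 and 2811 in cTEC. Pdgfb, the ligand that recruits pericytes, had 518 and 496 reads in mTEC and 77 and 53 in cTEC and was higher in mTEC, as Pdgfrb was, by 2.58 (2.25 to 2.96) in control and 3.21 (2.81 to 3.66) in knockout libraries. Pdgfd, another PDGFRB ligand, went the other way, with 91 and 97 reads in mTEC and 212 and 198 in cTEC and ratios of −1.37 (−1.75 to −1.02) and −1.03 (−1.40 to −0.68). Pdgfc, a PDGFRA ligand, had 353 to 459 reads per library and did not pass the size rule between populations.

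The pericyte genes Rgs5 and Cspg4 were read at very different depths. Rgs5 (ENSMUSG00000026678, chromosome 1, 169655501 to 169695813, plus strand) encodes a regulator that shortens G protein signals and is widely used to identify pericytes. It had 5706 and 5950 reads in control and knockout mTEC and 643 and 645 in the cTEC libraries. The mTEC libraries were higher 7.95-fold in control (log2 ratio 2.99, 2.87 to 3.11) and 9.20-fold in knockout mice (3.20, 3.08 to 3.32). Within mTEC, Rgs5 ranked 564 and 566 among protein-coding genes per kilobase, and in cTEC 5259 and 5833. Cspg4 (ENSMUSG00000032911, chromosome 9, 56865033 to 56899870, plus strand), the NG2 proteoglycan of the pericyte surface, had 98 and 121 reads in mTEC and 51 and 54 in cTEC. Its population ratio was 0.78 (0.28 to 1.30) in control and 1.15 (0.69 to 1.65) in knockout libraries, and the difference between these, 0.37 (−0.30 to 1.04), did not exclude 0.

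Rgs5 stood far above both of the surface genes with which it defines pericytes. Per kilobase, it exceeded Pdgfrb 17.5-fold (15.8 to 19.4) and 15.8-fold (14.4 to 17.5) in control and knockout mTEC and 25.8-fold (17.9 to 38.6) and 21.6-fold (15.4 to 31.1) in the cTEC libraries. Against Cspg4 the ratio differed between the populations, at 152.8 (125.2 to 188.5) and 129.1 (107.8 to 155.8) in mTEC and 33.1 (24.9 to 44.9) and 31.3 (23.7 to 42.2) in cTEC. Of the potassium channel genes that serve as further pericyte markers, Kcnj8 had 1 to 5 reads in any library, and Abcc9 had 41 and 38 reads in mTEC and 8 and 4 in cTEC.

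The 3 contractile genes differed in level and in the size of their population ratios. Acta2 (ENSMUSG00000035783, chromosome 19, 34241090 to 34255336, minus strand), smooth muscle actin, had 5220 and 5322 reads in control and knockout mTEC and 1928 and 2143 in cTEC. It was 2.43-fold higher in mTEC than in cTEC in control mice (log2 ratio 1.28, 1.20 to 1.36) and 2.48-fold in knockout mice (1.31, 1.24 to 1.38), and ranked 227 to 675 among protein-coding genes per kilobase. Myh11 (ENSMUSG00000018830, chromosome 16, 14194535 to 14291372, minus strand), smooth muscle myosin heavy chain, had 3499 and 3816 reads in mTEC and 2690 and 2907 in cTEC. It was nearly even between populations, at 0.22 (0.15 to 0.30) in control and 0.39 (0.32 to 0.46) in knockout libraries. Tagln (ENSMUSG00000032085, chromosome 9, 45929619 to 45936058, minus strand), the actin-binding protein transgelin, had 80 and 91 reads in mTEC and 88 and 77 in cTEC, with population ratios of −0.29 (−0.75 to 0.16) and 0.24 (−0.22 to 0.69). Neither Tagln interval excluded 0, and the populations overlapped.

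Acta2 and Tagln, which smooth muscle cells express together, were thus separated by a wide gap in these libraries. Per kilobase, Acta2 exceeded Tagln 72.8-fold (58.4 to 92.0) and 65.3-fold (53.1 to 81.2) in control and knockout mTEC, and 24.5-fold (19.7 to 30.6) and 31.1-fold (24.7 to 39.5) in the cTEC libraries. Myh11 exceeded it 8.0-fold to 11.4-fold. Tagln overlaps Pcsk7 (512 to 668 reads) and the antisense gene Gm48529 (57 to 75 reads), both on the plus strand. Of the 31 Tagln transcript windows of 50 bases, 15 (48.4%) occur in those genes, and the sources used here do not state the strand setting of the counting. With the Tagln length reduced by that share, the Acta2 ratios were 37.6, 33.7, 12.6 and 16.0 in the same order, and the Myh11 ratios 4.13 to 5.91. None of the windows of Acta2, Myh11, Rgs5 or Dcn occurred in another gene.

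**Figure D2:**
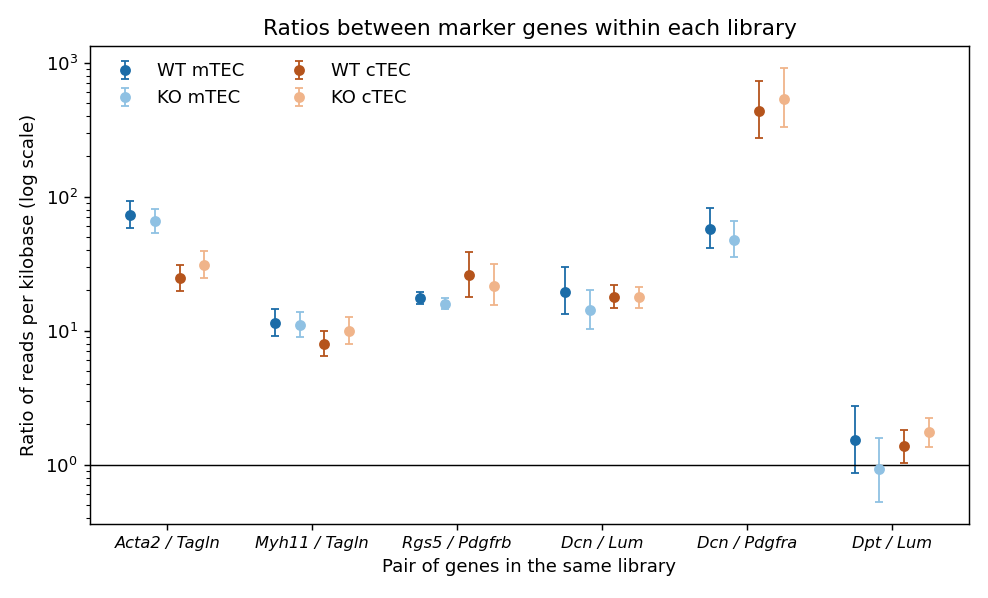
Ratio of reads per kilobase between pairs of genes in the same library (log axis), with exact 95% binomial intervals (WT, littermate control; KO, SCD1 knockout). Library scaling cancels in these ratios: Dcn over Lum is 14.1 to 19.5 in all 4 libraries, while Acta2 over Tagln is above 65 in mTEC and 24.5 and 31.1 in cTEC.

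The matrix genes Dcn, Lum and Dpt were higher in cTEC. Dcn (ENSMUSG00000019929, chromosome 10, 97479609 to 97518143, plus strand), the collagen-binding proteoglycan decorin, had 1210 and 1247 reads in control and knockout mTEC and 4535 and 5277 in cTEC. The ratio of mTEC to cTEC was −2.06 (−2.16 to −1.97) in control and −2.08 (−2.17 to −2.00) in knockout mice, or 4.18-fold and 4.24-fold lower in mTEC. Lum (ENSMUSG00000036446, chromosome 10, 97565128 to 97572703, plus strand), the related proteoglycan lumican, had 26 and 37 reads in mTEC and 106 and 125 in cTEC, with ratios of −2.16 (−2.86 to −1.55) and −1.75 (−2.33 to −1.22). Dpt (ENSMUSG00000026574, chromosome 1, 164796644 to 164824266, plus strand), the fibroblast matrix protein dermatopontin, had 28 and 24 reads in mTEC and 102 and 153 in cTEC, with ratios of −2.00 (−2.68 to −1.41) and −2.65 (−3.36 to −2.05). Both cTEC libraries lay above both mTEC libraries for each of the 3 genes.

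Dcn was set against other fibroblast genes of the same library. It exceeded Lum by factors whose intervals overlapped in all libraries, 19.5-fold (13.3 to 30.0) and 14.1-fold (10.2 to 20.2) in mTEC and 17.9-fold (14.8 to 22.0) and 17.7-fold (14.8 to 21.3) in cTEC, per kilobase. Against Pdgfra it stood 57.7-fold (41.4 to 82.8) and 47.6-fold (35.3 to 65.6) higher in mTEC but 432.6-fold (273.4 to 730.6) and 533.0-fold (332.6 to 915.6) in cTEC. Col1a1, the main fibrillar collagen of fibroblasts, had 507 and 497 reads in mTEC and 106 and 118 in cTEC, so that the per-kilobase ratio of Dcn to Col1a1 was 2.68 and 2.82 in mTEC and 48.1 and 50.3 in cTEC. Col3a1, another fibrillar collagen, had 794 and 862 reads in mTEC and 1167 and 1122 in cTEC, and the ratio of Dcn to it was 2.56 and 2.43 in mTEC and 6.53 and 7.91 in cTEC. The collagens themselves went in opposite directions between populations. The log2 ratios of mTEC over cTEC were 2.10 and 2.07 for Col1a1 and −0.71 and −0.38 for Col3a1, which did not pass 2-fold. Col1a2 went with Col3a1, with 106 and 113 reads in mTEC and 147 and 194 in cTEC. Its ratios were −0.63 and −0.78, which did not pass 2-fold either. The collagen genes Col5a1, Col6a1, Col6a2 and Col6a3 were higher in mTEC in both genotypes, as Col1a1 was.

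Dcn and Lum are neighbours in a cluster of small leucine-rich proteoglycan genes on chromosome 10 that continues with Kera (97606879 to 97613692) and Epyc (97644068 to 97682454), all on the plus strand. The cluster was split: Dcn and Lum were higher in cTEC, but Epyc had 176 and 190 reads in mTEC and 78 and 65 in cTEC, a ratio of 1.01 (0.62 to 1.42) in control and 1.54 (1.13 to 1.97) in knockout mice. Kera, the cornea proteoglycan keratocan, had 24 and 21 reads in mTEC and 1 and 0 in cTEC. A second cluster on chromosome 13 was split as well, with Aspn at 80 and 68 reads in mTEC and 2 and 4 in cTEC, and Ogn at 25 and 17 in mTEC and 84 and 88 in cTEC. Prelp and Fmod, on chromosome 1, went with Dcn. Prelp, a proteoglycan that anchors basement membrane to connective tissue, had 471 and 500 reads in mTEC and 3863 and 4311 in cTEC (−3.19, −3.33 to −3.05, and −3.11, −3.25 to −2.98), and its 68.0 and 69.9 CPM per kilobase in cTEC were above the 50.8 and 51.6 of Dcn.

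Genes were counted between libraries by a size rule: at least 50 reads over the pair, a 2-fold or larger ratio and an interval that excludes equality. Between mTEC and cTEC in control mice, 3 of 10 genes were higher in mTEC (Pdgfrb, Rgs5 and Acta2), where 19.0% of all tested genes were, and 3 were lower (Dcn, Lum and Dpt), where 8.53% were. In knockout mice 5 were higher, with Pdgfra and Cspg4 added, against 19.8% of all tested genes, and 3 were lower, against 8.96%. The 3 higher and 3 lower genes of the control pair passed in both genotypes, which 17.0% and 6.70% of the 15509 genes measured in both pairs did. The pairs share no library. Both mTEC libraries lay above both cTEC libraries for 6 genes and below them for 3, but 39.9% and 42.1% of all genes were separated in these ways too. With a minimum of 200 reads, 4 of the knockout pair's 8 genes were left, as Pdgfra, Cspg4, Lum and Dpt have fewer reads.

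**Figure D3:**
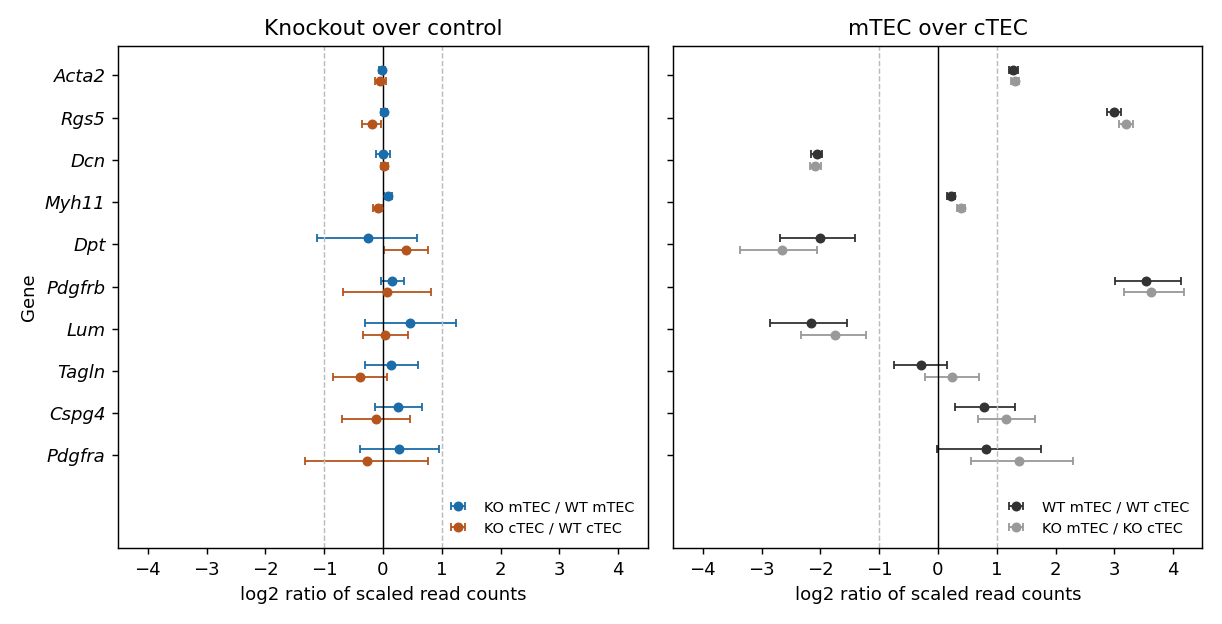
Log2 ratios of scaled read counts with exact 95% intervals for the 10 genes, knockout over control on the left and mTEC over cTEC on the right; dashed lines mark 2-fold (WT, littermate control; KO, SCD1 knockout). Every genotype ratio lies inside the dashed lines, while population ratios run from −2.65 for Dpt to 3.63 for Pdgfrb.

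Wider lists of fibroblast and mural genes also held genes of both directions. Of 28 other fibroblast genes tested in the control pair, 9 were higher in mTEC and 2 lower, with a median of 0.37 (all genes tested −0.06, with 19.0% higher and 8.53% lower). The higher ones included Col1a1 (2.10), Col6a3 (2.16) and Pi16 (70 and 4 reads), a gene of adventitial fibroblasts, and the lower ones were Serpinf1 (93 and 868 reads, −3.37, −3.70 to −3.07) and the gelatinase gene Mmp2 (−1.06). Of 17 other pericyte and smooth muscle genes, 6 were higher and 1 lower, against the same shares of all genes, with a median of 0.56. Cnn1, the smooth muscle calponin that is usually found with Tagln, had 131 and 168 reads in control and knockout mTEC and 2 and 0 in cTEC. Des, the muscle intermediate filament desmin, had 688 and 706 reads in mTEC and 122 and 127 in cTEC (2.33, 2.06 to 2.63, and 2.47, 2.20 to 2.76). In the knockout pair, 9 of 27 fibroblast genes were higher and 2 lower, and 8 of 16 mural genes were higher and 1 lower, against 19.8% and 8.96% of all tested genes.

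Of the SRF pathway genes, none of 7 tested passed between populations in either genotype, where 19.0% of all tested genes were higher and 8.53% lower in control mTEC, and 19.8% and 8.96% in knockout mTEC. Srf itself had 3856 to 4277 reads per library, and its coactivators Mkl1 and Mkl2 had 876 to 1075 and 689 to 913. Myocd, the coactivator of smooth muscle, had 9 reads in knockout mTEC and 0 in the other libraries.

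Markers of other cell types also differed between the populations. Of the skeletal muscle markers, 9 of 9 tested in the control pair were higher in mTEC, where 19.0% of all tested genes were, with a summed level of 124.4 CPM in control mTEC and 122.4 in knockout mTEC against 8.37 and 10.3 in cTEC. Of the mesothelial markers 3 of 3 tested were higher (128.6 and 133.8 CPM against 49.9 and 42.8), and of the myeloid markers 7 of 8, against the same share of all genes (327.2 and 366.3 against 96.7 and 118.8). Endothelial markers summed to 49.7 and 61.9 CPM in mTEC and 25.7 and 36.9 in cTEC. Of 5 tested in the control pair, 1 was higher and 1 lower, where 19.0% and 8.53% of all tested genes were. Of those sums, Vwf alone held 23.7 and 25.2 CPM in mTEC and 3.34 and 3.25 in cTEC. Cldn5 went the other way, with 0.587 and 3.02 CPM in mTEC and 3.21 and 3.71 in cTEC. Thymocyte markers summed to 199.5 and 242.7 CPM in mTEC and 278.8 and 359.0 in cTEC. The part of these cell types in the population ratios of Rgs5, Pdgfrb, Acta2, Dcn, Lum and Dpt was not tested.

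**Figure D4:**
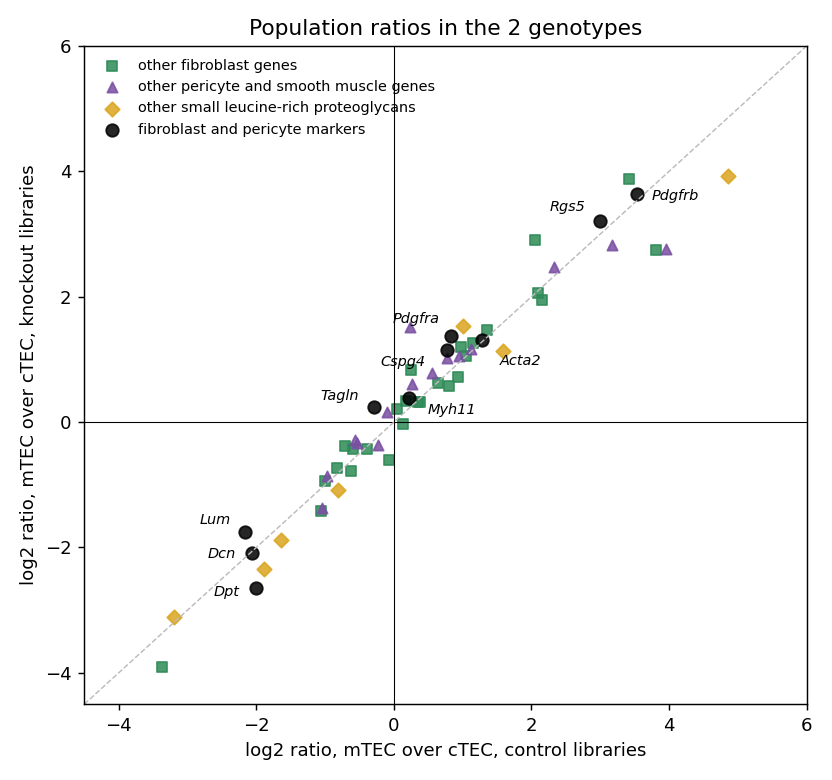
Log2 ratio of mTEC over cTEC in control libraries (x axis) against the same ratio in knockout libraries (y axis), one point per gene with at least 50 reads in both pairs and no library at 0 reads; the dashed line marks equal ratios. Dcn, Lum and Dpt lie at or below −1.75 on both axes and Rgs5 and Pdgfrb near or above 3, with genes of the wider lists on both sides of 0.

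Between genotypes none of the 10 genes passed the size rule. The share of all tested genes that passed was 0.935% in mTEC and 1.20% in cTEC, so that 0 of 10 is near the background. In mTEC all 10 had at least 50 reads, with a median log2 ratio of knockout over control of 0.11 (all genes 0.0064), and in cTEC 9 had, with a median of −0.05 (all genes 0.0100). The genotype comparisons use the same libraries as the population comparisons.

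The well-read genes had narrow counting intervals between the genotypes, which do not include the spread between mice. Acta2 stood at −0.02 (−0.07 to 0.04) in mTEC and −0.05 (−0.13 to 0.04) in cTEC. Dcn had intervals of −0.12 to 0.11 in mTEC and −0.04 to 0.08 in cTEC. Rgs5 stood at 0.02 (−0.04 to 0.07) in mTEC and −0.19 (−0.35 to −0.03) in cTEC, and Myh11 at 0.08 (0.01 to 0.15) and −0.09 (−0.16 to −0.01). The whole interval lay within 2-fold for 8 of 10 genes in mTEC and 9 of 9 in cTEC, as it did for 90.3% and 90.1% of all genes tested.

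The less-read genes were measured only loosely. Dpt was higher in knockout cTEC, with 153 against 102 reads (0.38, 0.02 to 0.76), and had 24 against 28 reads in mTEC (−0.26, −1.12 to 0.57). Lum stood at 0.46 (−0.30 to 1.25) in mTEC and 0.04 (−0.34 to 0.43) in cTEC, and Tagln at 0.14 (−0.31 to 0.59) and −0.39 (−0.85 to 0.07). Pdgfrb stood at 0.16 (−0.04 to 0.36) in mTEC and 0.06 (−0.67 to 0.81) in cTEC, and Cspg4 at 0.26 (−0.14 to 0.66) and −0.12 (−0.69 to 0.47). Pdgfra stood at 0.27 (−0.39 to 0.95) in mTEC and, with 18 and 17 reads, fell short of the minimum in cTEC. For Dpt and Lum in mTEC the counting interval between the paired libraries reached past 2-fold.

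In the wider lists the genotype ratios in cTEC lay mostly below 0. Of 13 other pericyte and smooth muscle genes tested, 13 were below 0, with a median of −0.17, where 47.7% of all 14445 genes tested were below 0. Gucy1b1, a subunit of the nitric oxide receptor, passed the size rule (35 control and 15 knockout reads, −1.39, −2.40 to −0.51), and Smtn, the smooth muscle protein smoothelin, stood at −0.53 (−0.80 to −0.26). The 4 PDGF ligands were below 0 as well, with a median of −0.31 and Pdgfb at −0.73 (−1.27 to −0.21), as were the 7 SRF pathway genes (median −0.11) and 15 of 25 other fibroblast genes (median −0.11). In mTEC, 13 of 18 mural genes were below 0 (median −0.11), where 48.1% of all genes were, and Vtn, the adhesion protein vitronectin, passed the rule (63 control and 29 knockout reads, −1.15, −1.85 to −0.51). Beside these, endothelial markers were above 0 in 7 of 7 tested in mTEC (median 0.48) and 4 of 5 in cTEC (0.21), thymocyte markers in 9 of 10 (0.29) and 10 of 10 (0.38), and cTEC markers in 8 of 8 in both (0.27 and 0.32). The endothelial markers Cldn5 in mTEC (10 control and 53 knockout reads, 2.31, 1.37 to 3.50) and Cdh5 in cTEC (17 and 53, 1.41, 0.63 to 2.32) passed the rule upwards. The skeletal muscle marker Myod1 passed it downwards in mTEC (34 and 17, −1.02, −1.98 to −0.16). Myeloid markers were above 0 in 5 of 8 in mTEC (0.13) and 6 of 6 in cTEC (0.31). The mTEC markers were evenly split in mTEC (4 of 8 below 0, median 0.02), while in cTEC 6 of 8 were below 0, with a median of −0.21 and 7 of 8 intervals excluding 0. Among these 8, Ccl21a is counted as 2 entries of that name, which were the only ones above 0 in cTEC (0.71 and 0.27). Mesothelial markers were below 0 in 1 of 3 in mTEC (median 0.05) and 2 of 2 in cTEC (−0.16), and epithelial markers in 4 of 7 in both (−0.02 and −0.10). Their part in the genotype ratios was not tested.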

How the data were processed

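The deposited table holds the authors' raw counts of reads per gene, with gene positions, biotypes and lengths in bases (per the file headers). Per the submitters' processing notes, CASAVA, HISAT2 2.0.5 and featureCounts 1.5.0-p3 were used with build mm10. The sources used here do not state the annotation, strand and multi-mapping settings.

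Counts were scaled by TMM factors from edgeR 4.0.16 under R 4.3.3, with DESeq2 1.42.0 size factors as an alternative. Python 3.11.15, numpy 2.4.6, pandas 2.3.3, scipy 1.17.1 and matplotlib 3.10.9 did the rest. Log2 ratios carry a prior count of 0.5, and the difference between 2 ratios has a normal-approximation interval. The size rule asks for 50 reads over a pair and a 2-fold ratio. The floor of 3 reads equals 0.171 to 0.196 CPM. Shared sequence was measured in 50-base windows of the longest GENCODE M21 transcript, matched on either strand.

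The genes and lists were chosen with earlier results of these data known, and pairs for within-library ratios after their values were seen. All 10 genes are named, with some but not all of the list genes that passed the rule or had the largest ratios of their list. Other list genes named were chosen after their values were seen. Mrtfa and Mrtfb appear as Mkl1 and Mkl2.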

Additional observations from a re-analysis of the deposited data

Results flagged for a closer look

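Rgs5 and Myh11 are listed because their genotype ratios had opposite signs in the populations and the counting interval of the difference excludes 0. For Rgs5 the log2 ratio of knockout over control was 0.02 in mTEC and −0.19 in cTEC, a difference of 0.21 (0.04 to 0.38). For Myh11 it was 0.08 and −0.09, a difference of 0.17 (0.07 to 0.27). Of the 9 genes with at least 50 reads in both pairs, these 2 had an interval that excludes 0. The share of all genes with such an interval was not worked out, so this count has no background beside it. Rgs5 and Myh11 have 12944 and 12912 reads over the libraries, and at that depth the counting interval is narrow. With 1 library per group, whether either difference exceeds the spread between mice was not tested.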

How the results depend on the processing

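Under DESeq2 size factors, total-read scaling and a prior count of 2, all counts of the 10 genes past the size rule stayed within 1.5 times of their values, and no called ratio changed sign under any alternative run. Total-read scaling moved the median of all genes by 0.09 on the log2 scale between populations, and no scaling moved a ratio of the 10 genes by more than that. It still put 6 ratios outside their counting intervals, while 33 stayed inside. The 6 were the population ratios of Acta2, Dcn and Myh11 in both genotypes, such as Myh11 in control libraries at 0.31 instead of 0.22. With a minimum of 200 reads, the genes past the rule between mTEC and cTEC in knockout mice went from 8 to 4, of which 3 were higher in mTEC instead of 5. Among the PDGF ligand, other fibroblast, mural and proteoglycan lists together, that minimum moved the count from 29 to 18 in the knockout population pair, from 26 to 15 in the control population pair, and from 1 to 0 in each genotype pair. Without a minimum the genotype counts were 2 in mTEC and 3 in cTEC. With a log2 threshold of 0.5 they were 3 and 5, and the control population pair had 42. By construction, these settings change which genes are admitted. No library could be left out, because each group has 1. No paired analysis was possible because the groups share fewer than 2 replicate numbers; an additive fit of population and genotype over the 4 libraries was not run. Depth limits Pdgfra, Lum, Dpt, Tagln and Cspg4, with 17 to 153 reads per library. It also limits Pdgfrb in cTEC, with 30 control and 36 knockout reads, on which its population ratios rest.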

Other observations

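Relatives of the 10 genes within their protein families were also read. Pdgfrl, a receptor-like gene without a kinase domain, was lower in the knockout library of both populations, with 112 control and 68 knockout reads in mTEC (−0.76, −1.22 to −0.32) and 250 and 148 in cTEC (−0.95, −1.26 to −0.66). The pairs share no library, and Pdgfrl did not pass the size rule in either. It was named because its genotype ratio was the largest of this list in both. In the list, 12 of 18 genes tested in mTEC and 11 of 13 in cTEC were below 0, where 48.1% and 47.7% of all genes were. The share of all genes lower in both pairs was not worked out. Rgs4, a relative of Rgs5, was higher in mTEC as well, with 6824 and 7010 reads against 1943 and 1756 in cTEC (1.65, 1.58 to 1.73, and 1.99, 1.92 to 2.07). Tagln2, the transgelin of non-muscle cells, had 2429 to 5901 reads per library, against 77 to 91 for Tagln, and 160.0 and 166.3 CPM per kilobase in mTEC. Tnxb, a tenascin read in the same list though not a family relative of any of the 10 genes, had 325 and 335 reads in mTEC and 28 and 39 in cTEC.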
